A study of Mus musculus with 124 samples.

Results

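The 35 genes described here are activity-induced immediate early genes measured in the dorsal dentate gyrus of adult mouse offspring. They were taken by symbol from a list drawn up with earlier results of these data known, and all 35 were found among the 24409 genes of the dentate gyrus table. They were split by textbook timing into 25 fast primary members, 8 slower or late members and 2 members that cells also express broadly at rest (Jund and Mcl1).

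The study asked whether human chorionic gonadotropin (hCG), given to the mother on the day ovulation is triggered, alters the transcriptomes and DNA methylomes of oocytes, embryos and offspring. Dams of the hCG group were in natural estrus and received 7.5 IU of hCG intraperitoneally, without PMSG, to induce ovulation. Control (Ctrl) females in estrus were each kept with a vasectomized male, as the protocol describes for oocyte collection. How the dams of the blastocysts and offspring were mated is not given in the sources used here. Polyadenylated RNA was sequenced from the dorsal dentate gyrus (6 Ctrl and 6 hCG libraries) and, by Smart-seq2, from blastocysts at embryonic day 3.5 (28 Ctrl and 28 hCG libraries). The offspring of both groups were 8 weeks old, and both were anaesthetised with tribromoethanol, perfused with buffered saline and decapitated. The labels give no strain, no sex and no time of day for the offspring, and do not state whether each dentate gyrus library came from a separate animal or litter. The p-values below therefore measure the spread between these libraries.

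Immediate early genes are genes that a cell transcribes within minutes of a stimulus without first making new protein. In neurons, calcium entry through glutamate receptors and voltage-gated channels activates kinases that act on factors already bound at their promoters, among them CREB at the cAMP response element (CRE) and SRF with its cofactors at the CArG box. In the dentate gyrus, whose granule neurons fire sparsely, Fos and Arc RNA or protein is widely used to mark recently active cells. The products range from transcription factors to synaptic proteins and phosphatases that end the signal.

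Of the 35 genes, 27 had an entry in the RefSeq promoter table (GRCm38.p6), and the 250 bases before each start site were searched on both strands. The core of the CRE, TGACG, occurred in 18 of these 27 members (66.7%), against 19.8% of 27025 genes in the same table. The full CRE TGACGTCA, which contains this core on each strand, occurred in 4 members (14.8%, against 1.8%). The Egr site GCGNGGGCG occurred in 8 members (29.6%, against 5.3%), the CArG box in 3 (11.1%, against 1.6%), the Mef2 site in 3 (11.1%, against 3.4%) and the AP-1 site TGANTCA in 2 (7.4%, against 7.8%). A gene with several annotated starts counts as holding a motif if any window holds it. The windows of 6 members are printed 5′ to 3′ on the gene's strand, with the full CRE and its core on either strand in capitals. They were chosen to set 4 members that fell in the hCG group and hold the core (Fos, Junb, Egr4, Nr4a2) beside one that fell and holds none (Gadd45b) and one that was not called and holds a full CRE (Dusp1).
Fos: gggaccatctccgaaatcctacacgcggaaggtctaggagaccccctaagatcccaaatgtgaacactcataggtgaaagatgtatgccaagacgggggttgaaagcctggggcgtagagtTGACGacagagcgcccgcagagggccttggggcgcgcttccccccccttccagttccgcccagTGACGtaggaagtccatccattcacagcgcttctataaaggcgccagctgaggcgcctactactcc
Junb: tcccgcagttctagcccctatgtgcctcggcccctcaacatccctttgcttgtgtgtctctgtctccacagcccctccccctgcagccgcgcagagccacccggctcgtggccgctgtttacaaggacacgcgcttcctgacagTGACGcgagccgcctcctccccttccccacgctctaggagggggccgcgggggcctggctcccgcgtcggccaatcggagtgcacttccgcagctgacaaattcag
Egr4: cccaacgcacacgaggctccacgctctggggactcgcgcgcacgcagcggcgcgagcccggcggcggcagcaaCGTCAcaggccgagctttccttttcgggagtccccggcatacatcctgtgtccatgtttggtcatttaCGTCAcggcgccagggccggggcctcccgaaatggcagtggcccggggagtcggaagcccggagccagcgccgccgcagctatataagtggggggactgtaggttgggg
Nr4a2: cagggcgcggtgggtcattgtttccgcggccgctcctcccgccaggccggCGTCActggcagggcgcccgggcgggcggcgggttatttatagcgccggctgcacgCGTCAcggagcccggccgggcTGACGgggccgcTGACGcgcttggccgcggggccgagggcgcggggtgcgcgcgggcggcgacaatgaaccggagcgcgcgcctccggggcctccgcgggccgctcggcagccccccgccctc
Gadd45b: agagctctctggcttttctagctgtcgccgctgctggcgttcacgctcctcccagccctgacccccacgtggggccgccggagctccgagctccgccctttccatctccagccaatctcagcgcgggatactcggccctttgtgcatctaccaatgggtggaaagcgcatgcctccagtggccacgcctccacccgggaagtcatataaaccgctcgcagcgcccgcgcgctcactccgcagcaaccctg
Dusp1: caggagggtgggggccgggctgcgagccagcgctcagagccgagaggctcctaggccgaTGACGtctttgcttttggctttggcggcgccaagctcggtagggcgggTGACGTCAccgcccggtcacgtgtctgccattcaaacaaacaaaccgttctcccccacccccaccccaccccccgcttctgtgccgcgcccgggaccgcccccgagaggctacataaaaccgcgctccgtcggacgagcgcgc
These windows lie at chr12:85473640-85473889, plus strand for Fos, chr8:84978749-84978998, minus strand for Junb, chr6:85513590-85513839, minus strand for Egr4, chr2:57124004-57124253, minus strand for Nr4a2, chr10:80929841-80930090, plus strand for Gadd45b and chr17:26508473-26508722, minus strand for Dusp1. The CRE cores of Fos begin 129 and 66 bases before the start, that of Junb 106 bases, those of Egr4 177 and 109 bases, and those of Npas4, whose window is not printed, 179 and 169 bases. The full CRE of Dusp1 begins 143 bases before its start. A match is a string of letters and says nothing of binding in these animals.

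Total estimated counts ran from 14991582 to 17859654 per dentate gyrus library, and values are given in CPM, which scales each library's counts to the same total. Members were compared with edgeR's quasi-likelihood test fitted on all 13853 genes that passed a low-count filter, with Benjamini-Hochberg adjustment over all of them, and a gene is called below when its adjusted p was under 0.05. All 12 libraries expressed markers of dentate granule neurons, whose summed level over 12 genes was 1174 to 1924 CPM in Ctrl and 1705 to 2090 CPM in hCG. One hCG library, hCG 6, stood apart in choroid plexus genes, with a summed level over 10 markers of 9776 CPM against 37.4 to 76.8 CPM in the other hCG libraries and 33.1 to 112 CPM in Ctrl. Without it, 10 members were called lower and 2 higher, and the calls described below for Atf3 and Egr2 were lost.

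All 35 members passed the low-count filter. In the hCG group, 12 of them fell and 2 rose. Over all genes tested, 3.20% were called lower and 4.66% higher. Log2 fold changes (hCG minus Ctrl) of the members ran from -1.27 to 0.47 with a median of -0.19, and 26 were negative and 9 positive, while the median of all genes tested was 0.0. The highest hCG library lay below the lowest Ctrl library for 7 members, a pattern seen in 2.13% of all genes, and the reverse held for 1 member, a pattern seen in 2.37%. Of the 25 fast primary members 11 fell and 1 rose (median -0.17), and of the 8 slower or late members 1 fell and 1 rose (median -0.23). Neither Jund nor Mcl1 was called. In each of the 6 hCG libraries all 12 genes called lower lay below their Ctrl mean, which their choice from the same libraries largely fixes. Among Ctrl libraries, Ctrl 1 lay below the Ctrl mean for 11 of these 12 genes and Ctrl 6 for 0. In bulk tissue, fewer cells of a type and less RNA per cell cannot be told apart.

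**Figure D1:**
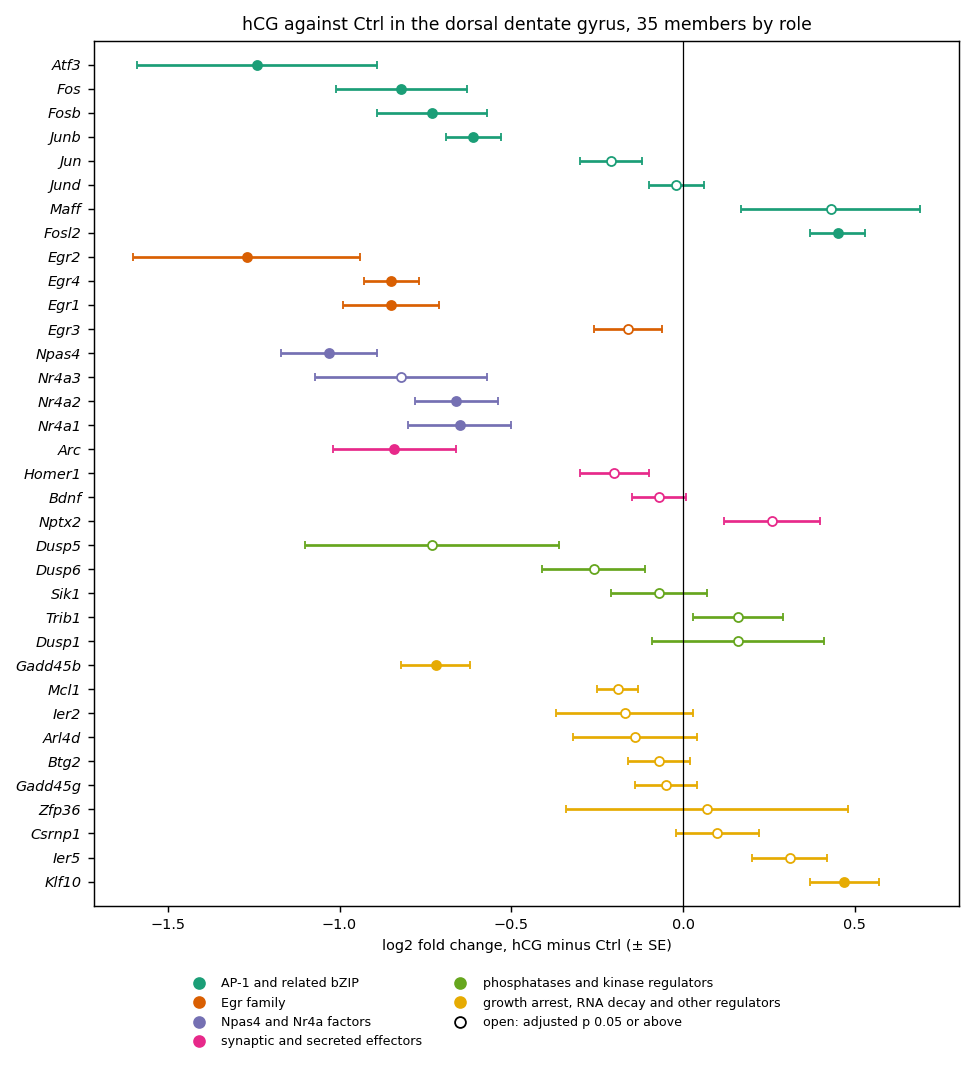
Log2 fold change, hCG minus Ctrl, with its standard error for the 35 genes (rows), coloured by role; filled points have an adjusted p under 0.05 in edgeR's quasi-likelihood test. The 12 filled points on the left run from -1.27 (Egr2) to -0.61 (Junb), and the 2 on the right are Fosl2 (0.45) and Klf10 (0.47).

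The AP-1 genes encode Fos and Jun proteins, which pair through leucine zippers and bind the AP-1 site, together with related zipper proteins such as Atf3 and Maff. Of these 8 members 4 fell and 1 rose. Fos (chr12:85473890-85477274) measured 16.5 to 33.4 CPM in Ctrl (16.5, 33.4, 27.9, 22.1, 29.0 and 32.5 in libraries 1 to 6) and 9.04 to 19.2 CPM in hCG (9.04, 13.8, 19.2, 15.5, 14.7 and 18.4). Every hCG library lay below the Ctrl median, and the groups met only through Ctrl 1, which lay inside the hCG range. The mean fell from 26.9 ± 6.48 to 15.1 ± 3.66 CPM (SD, n = 6 each), a log2 fold change of -0.82 ± 0.19 (SE, adjusted p = 0.0215, edgeR's quasi-likelihood test). Fosb (chr7:19302696-19310118) encodes a protein with a stable splice form that accumulates with repeated activity. The gene measured 15.7, 21.2 and 27.5 CPM (lowest, median and highest) in Ctrl and 8.35, 13.2 and 15.8 CPM in hCG. The ranges met only where Ctrl 1 lay just below hCG 3, and the log2 fold change was -0.73 ± 0.16 (adjusted p = 0.0130).

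Junb (chr8:84976909-84978748), a Jun protein that often restrains Jun itself, measured 56.8, 64.8 and 72.6 CPM in Ctrl and 36.0, 42.6 and 50 CPM in hCG. Its groups did not overlap, and it fell by 0.61 ± 0.08 on the log2 scale (adjusted p = 6.89e-04). Atf3 (chr1:191170296-191183333), a stress-induced repressor, measured 1.74, 8.26 and 12.8 CPM in Ctrl and 2.38, 3.08 and 4.52 CPM in hCG. The value of 1.74 CPM belonged to Ctrl 1 and was the lowest of all 12 libraries, while the other Ctrl libraries measured 6.60 CPM or more. Its log2 fold change of -1.24 ± 0.35 (adjusted p = 0.0464) lost its call when any library other than Ctrl 1 was left out, with an adjusted p of up to 0.0895, and had an adjusted p of 8.67e-04 without Ctrl 1.

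Fosl2 (chr5:32136472-32157840), which encodes Fra-2, a Fos-family member of the later phase, moved the other way. It measured 64.0, 68.0 and 75.7 CPM in Ctrl and 83.5, 88.9 and 119 CPM in hCG, so that every hCG library lay above every Ctrl library. The log2 fold change was 0.45 ± 0.08 (adjusted p = 0.0026). The remaining members of the family were not called. Jun measured 328 ± 42.9 CPM in Ctrl and 280 ± 33.8 CPM in hCG (log2 fold change -0.21, adjusted p = 0.187). The difference was -0.02 for Jund (adjusted p = 0.929) and 0.43 for Maff, a small Maf protein read at 1.12 to 5.08 CPM (adjusted p = 0.345).

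The 4 Egr genes encode zinc finger factors that bind GC-rich sites, and 3 of them fell. Egr1 measured 78.4, 112 and 153 CPM in Ctrl and 50.3, 62.8 and 70.3 CPM in hCG. Its groups did not overlap, and its log2 fold change was -0.85 ± 0.14 (adjusted p = 0.00281). Egr4 (chr6:85511121-85513589) had the smallest adjusted p of the 35 members. It measured 17.4, 19.8, 20.2, 19.9, 20.5 and 20.7 CPM in Ctrl libraries 1 to 6 and 9.92, 11.3, 11.9, 10.6, 9.64 and 11.5 CPM in hCG libraries 1 to 6. Ctrl 1 was again the lowest control, and the groups lay apart, at 19.7 ± 1.22 and 10.8 ± 0.912 CPM (SD, n = 6 each). The log2 fold change was -0.85 ± 0.08 (adjusted p = 5.71e-05).

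Egr2 (chr10:67534469-67542188), also known for its role in Schwann cells and the hindbrain, measured 4.48, 6.64 and 10.1 CPM in Ctrl and 1.07, 2.58 and 4.91 CPM in hCG. Overlap was limited to the lowest Ctrl and the highest hCG libraries. It fell by 1.27 ± 0.33 on the log2 scale (adjusted p = 0.0308), but at 17 to 164 estimated counts per library this call ended when Ctrl 2, 4, 5 or 6 or hCG 4, 5 or 6 was left out (adjusted p of up to 0.0686). Egr3, the fourth of the family, measured 131, 167 and 207 CPM in Ctrl and 125, 152 and 165 CPM in hCG. Its log2 fold change was -0.16 ± 0.10 (adjusted p = 0.336). A test of the difference between Egr3 and the other 3 genes was not run.

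Npas4 and the Nr4a nuclear receptors are transcription factors switched on by calcium, and Npas4, found mainly in neurons, controls inhibitory synapses and Bdnf. All 4 of these members had negative log2 fold changes and 3 fell. Npas4 (chr19:4984353-5003439) measured 16.9, 18.3, 16.6, 19.2, 19.9 and 22.5 CPM in Ctrl libraries 1 to 6 and 7.34, 11, 10.9, 8.03, 11.1 and 6.51 CPM in hCG libraries 1 to 6. Every hCG library lay below every Ctrl library, and the hCG level was 0.488 of the Ctrl level in the fit (log2 fold change -1.03 ± 0.14, adjusted p = 5.62e-04). Nr4a1 (chr15:101253902-101274795) measured 32.7, 45.4 and 56.9 CPM in Ctrl and 23.1, 26.7 and 37.2 CPM in hCG. Only Ctrl 1 and hCG 1 lay in the shared range, and the log2 fold change was -0.65 ± 0.15 (adjusted p = 0.0173).

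Nr4a2 (chr2:57106830-57124003), the 1 slower member that fell, measured 16.7, 23.1 and 28.0 CPM in Ctrl and 11.8, 14.7 and 16.3 CPM in hCG. Its groups did not overlap, and its log2 fold change was -0.66 ± 0.12 (adjusted p = 0.00404). Nr4a3 had no overlap either, with 79.8, 89.4 and 118 CPM in Ctrl against 27.8, 59.2 and 78.3 CPM in hCG. Its hCG libraries were spread widely, from hCG 4 at the bottom to hCG 5 at the top, and its log2 fold change of -0.82 ± 0.25 missed the threshold (adjusted p = 0.0683). It was called without hCG 5.

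The synaptic and secreted effectors carry the response to the synapse. Arc (chr15:74669081-74672570), a capsid-forming protein that removes AMPA receptors, measured 129, 195, 207, 201, 206 and 265 CPM in Ctrl libraries 1 to 6. In hCG libraries 1 to 6 it measured 147, 130, 114, 93.7, 106 and 75.0 CPM. Ctrl 1 was the lowest control and lay inside the hCG range, and the other 5 Ctrl libraries lay above all hCG libraries. The mean fell from 201 ± 43.1 to 111 ± 25.8 CPM (SD, n = 6 each), and the log2 fold change was -0.84 ± 0.18 (adjusted p = 0.0190).

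The other 3 effectors, all slower members, were not called. Bdnf, a secreted neurotrophin, measured 72.7, 73.3, 59.2, 70.0, 68.0 and 75.5 CPM in Ctrl and 65.2, 67.8, 65.2, 64.6, 77.4 and 55.0 CPM in hCG, with a log2 fold change of -0.07 ± 0.08 (adjusted p = 0.626). Homer1, a scaffold of metabotropic glutamate receptors, measured 63.9, 63.7, 62.2, 76.9, 74.4 and 86.6 CPM in Ctrl and 67.7, 56.1, 59.7, 58.4, 71.1 and 54.3 CPM in hCG. Its groups overlapped and its log2 fold change was -0.20 ± 0.10 (adjusted p = 0.209). Nptx2, a secreted pentraxin that clusters AMPA receptors, measured 19.9 ± 4.53 CPM in Ctrl and 23.6 ± 3.59 CPM in hCG (log2 fold change 0.26, adjusted p = 0.278).

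The phosphatases and kinase regulators, which feed back on the MAP kinases and on CREB coactivators, gave no call among 5 members. Dusp1, a nuclear MAP kinase phosphatase, measured 17.3 ± 5.56 CPM in Ctrl and 19.1 ± 6.12 CPM in hCG (log2 fold change 0.16 ± 0.25, adjusted p = 0.743). Dusp5, a phosphatase specific for ERK, measured 1.23, 3.72 and 5.37 CPM in Ctrl and 0.997, 1.98 and 3.33 CPM in hCG. Its log2 fold change of -0.73 was similar in size to those of called members, but its standard error was 0.37 and its adjusted p 0.245. The log2 fold change was -0.26 for Dusp6, -0.07 for the kinase Sik1 and 0.16 for the pseudokinase Trib1, with adjusted p of 0.32, 0.791 and 0.503.

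Among the 10 regulators of growth arrest, RNA decay and other functions, 1 fell and 1 rose. Gadd45b (chr10:80930091-80932204), which takes part in stress signalling and in active DNA demethylation, measured 12.8, 15.5 and 18 CPM in Ctrl and 7.97, 8.89 and 11.2 CPM in hCG. Its groups did not overlap, and it fell by 0.72 ± 0.10 on the log2 scale (adjusted p = 9.63e-04). Its relative Gadd45g measured 19.5 ± 1.61 CPM in Ctrl and 18.7 ± 2.11 CPM in hCG (log2 fold change -0.05, adjusted p = 0.789). Klf10 (chr15:38291464-38300711), a zinc finger gene induced by TGF-beta, measured 29.3, 33.4 and 39.5 CPM in Ctrl and 35.5, 46.0 and 54.1 CPM in hCG. All hCG libraries lay above the Ctrl median, and the log2 fold change was 0.47 ± 0.10 (adjusted p = 0.0121).

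The other 8 regulators were not called. Mcl1, which keeps cells from apoptosis, measured 94.8, 108 and 120 CPM in Ctrl and 85.2, 93.6 and 98.7 CPM in hCG (log2 fold change -0.19 ± 0.06, adjusted p = 0.0635). Ier5 measured 48.3 ± 8.01 CPM in Ctrl and 59.3 ± 6.44 CPM in hCG, with every hCG library above the Ctrl median (log2 fold change 0.31 ± 0.11, adjusted p = 0.0913). The log2 fold changes of Btg2, Zfp36 (an RNA-binding protein that hastens mRNA decay), Csrnp1, Ier2 and Arl4d lay between -0.17 and 0.10, and their adjusted p between 0.645 and 0.935.

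**Figure D2:**
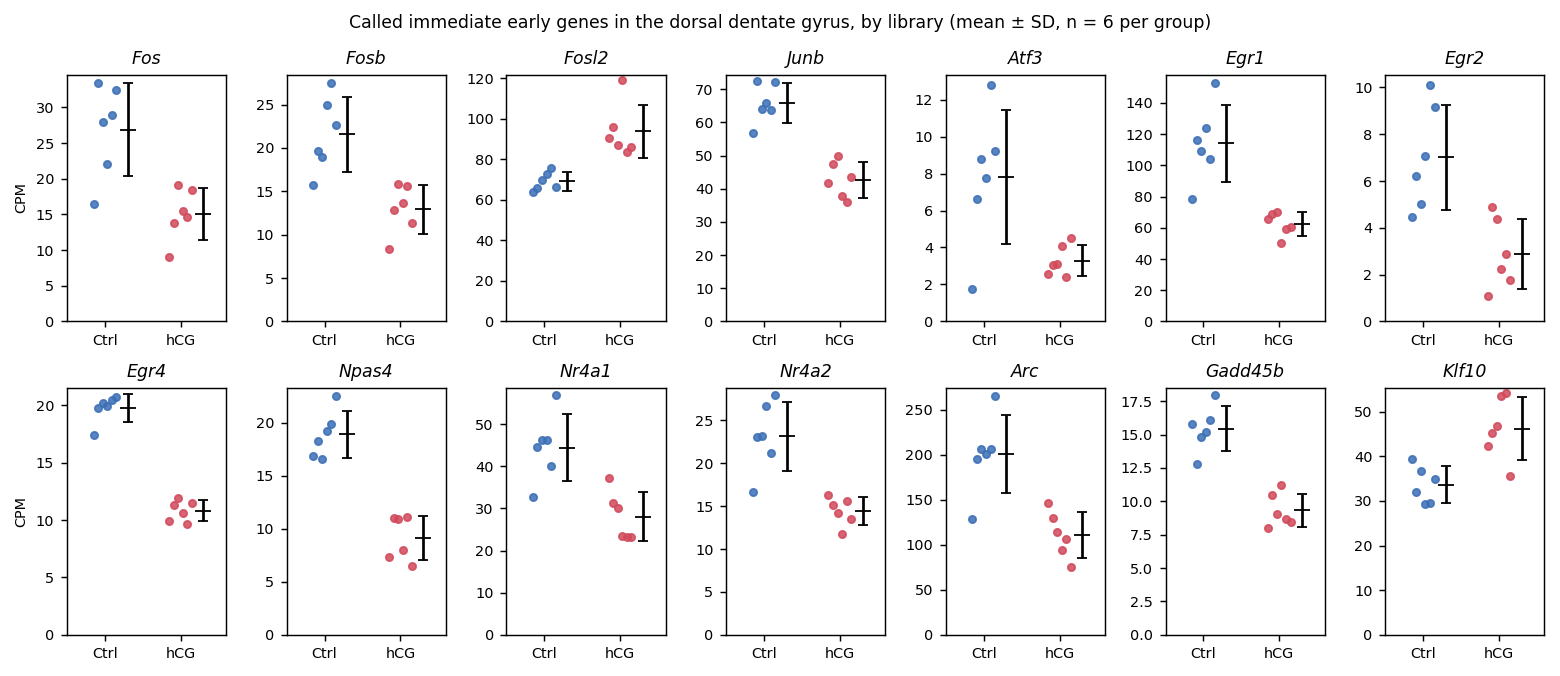
CPM of the 14 called genes in each of the 6 Ctrl (blue) and 6 hCG (red) dentate gyrus libraries, with the mean and SD of each group in black; every vertical axis starts at 0. Fosl2 and Klf10 are higher in hCG, and Ctrl 1, the leftmost blue point, is the lowest control for Fos, Fosb, Junb, Atf3, Egr1, Egr2, Egr4, Nr4a1, Nr4a2 and Arc.

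Of the members called lower, 10 had a promoter entry and 9 of these held the CRE core TGACG, all but Gadd45b. Of the 16 members with an entry that were not called 9 held it, and the entry of Fosl2 did not. The full CRE was found in Maff, Dusp1, Btg2 and Arl4d, none of which was called. These shares are given as counts, and their difference was not tested.

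The table lists 58 transcripts of the 35 genes, of which 47 passed the filter. In the transcript fit 10 fell and 2 rose, against 1.24% and 2.02% of all 18625 transcripts tested. With 1 library left out 5 to 12 fell and 1 to 2 rose, with 5 lower without Ctrl 2, 3, 4 or 6 or hCG 3, 4 or 6 and 6 lower without hCG 5, and without the low-count filter 6 fell and 1 rose. The 2 transcripts of Arc fell alike, NM_018790 from 128 ± 30.8 to 71.9 ± 14.4 CPM (log2 fold change -0.82, adjusted p = 0.0336) and NM_001276684 from 72.6 ± 13.5 to 39.1 ± 12.7 CPM (log2 fold change -0.87, adjusted p = 0.0408). The tested Bdnf transcripts had log2 fold changes from -0.84 (NM_001285416) to 0.75 (NM_007540), and none was called. The main Nr4a2 transcript, NM_013613, measured 20.4 ± 6.30 CPM in Ctrl and 10.7 ± 2.69 CPM in hCG, with a log2 fold change of -0.92 and an adjusted p of 0.0586. Homer1 was read mostly as NM_147176, with 54.4 ± 7.30 CPM in Ctrl against 48.3 ± 6.07 CPM in hCG (log2 fold change -0.16, adjusted p = 0.472). Its transcript NM_011982 measured 14.8 ± 6.51 CPM in Ctrl and 10.4 ± 3.11 CPM in hCG (log2 fold change -0.49, adjusted p = 0.488). For NM_001284189 the log2 fold change was 0.14 (adjusted p = 0.927). Isoform names are not given in the sources used here. How reads divide between transcripts of one gene is an estimate made upstream, and these values depend on it.

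Genes that act before the immediate early genes were examined as a list of 27 upstream kinases, channels and promoter-binding factors. In this list 3 genes rose and 1 fell, against 4.66% and 3.20% of all genes tested. The median log2 fold change of the list was -0.01. Camk4, the nuclear calcium kinase that phosphorylates CREB, fell from 111 ± 19.6 to 73.8 ± 12.7 CPM (log2 fold change -0.57, adjusted p = 0.026). Elk1, an SRF partner, rose from 140.0 ± 9.23 to 191 ± 18 CPM (0.46, adjusted p = 6.27e-04), Mkl1, another SRF cofactor, by 0.33 (adjusted p = 0.00928) and Cacna1c, the L-type calcium channel, by 0.28 (adjusted p = 0.00701). A second list held 38 other genes known to respond to activity or growth signals. In it 2 fell and 1 rose (median -0.03), against 3.20% and 4.66% of all genes tested. Per1 fell by 0.34 (adjusted p = 0.033) and Klf6 by 0.32 (adjusted p = 0.0465), while Nrn1, a secreted neuritin, rose from 315 ± 30.8 to 426 ± 51.7 CPM (log2 fold change 0.45, adjusted p = 0.00335). Rasl11a measured 8.14 ± 1.37 CPM in Ctrl and 4.87 ± 2.04 CPM in hCG and was not called (log2 fold change -0.72, adjusted p = 0.0617).

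Of 6 genes that respond to temperature and handling, 5 fell in the hCG group. Rbm3, an RNA-binding protein of the cold response, measured 128 to 157 CPM in Ctrl and 40.7 to 69.6 CPM in hCG (log2 fold change -1.46, adjusted p = 5.71e-05), and Cirbp measured 50.8 to 73.0 CPM and 22.3 to 33.9 CPM (-1.16, adjusted p = 5.71e-05). The heat shock genes Hspa1a, Hspa1b and Dnajb1 fell by 1.25, 0.98 and 0.76, and Hsph1 differed by 0.25 (adjusted p = 0.486). The summed level of the 6 genes, most of it from Hsph1, was 785 to 1359 CPM in Ctrl and 761 to 1258 CPM in hCG. Their part in the result on the immediate early genes was not tested. Granule neuron markers were not lower as a list: of 12 genes, 1 fell (Trpc6) and 3 rose (Prox1, Glis3, Plk5), with a median of 0.28. Markers of astrocytes (5 genes), oligodendrocytes (5 genes) and pyramidal neurons of CA1 and CA3 (8 genes) gave no call, and 3 of 7 microglial, 1 of 8 vascular and 1 of 6 interneuron markers rose. All 5 oligodendrocyte markers had negative log2 fold changes (median -0.38), and their summed level had a median of 2043 CPM in Ctrl and 1404 CPM in hCG, with overlapping groups. All 8 vascular markers had positive ones (median 0.33). The part of cell composition in the result was not tested.

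**Figure D3:**
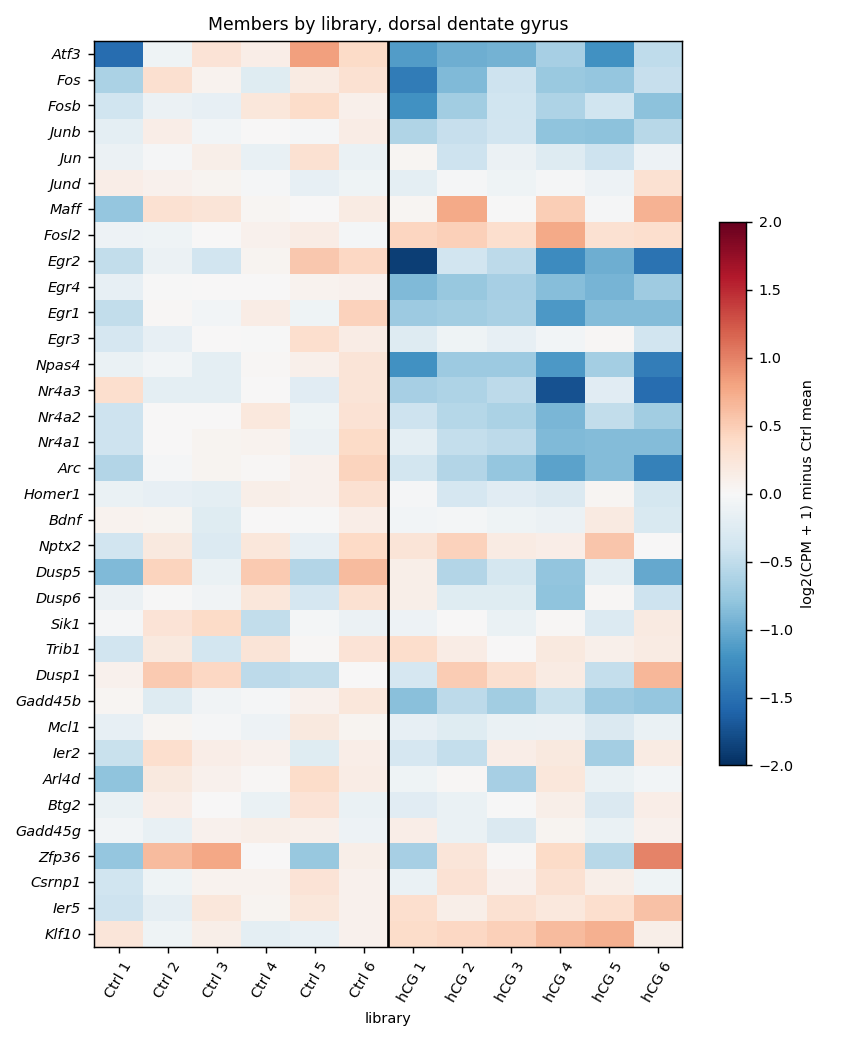
Log2(CPM + 1) of each gene (rows, grouped by role) in each dentate gyrus library (columns) minus the mean of the 6 Ctrl libraries; blue is lower and red higher. The rows of Egr4, Npas4 and Gadd45b are blue in all 6 hCG libraries, those of Fosl2 and Klf10 are red, and Ctrl 1 is blue for 11 of the 12 genes called lower.

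Covariation asks whether genes that respond to the same activity go up and down together from one library to the next within a group. Over all 595 pairs of members, the median Pearson r of log2(CPM + 1) was 0.34 in Ctrl and -0.03 in hCG (6 libraries each), and the median over all pairs of tested genes was 0.0 in both. With deviations from the group means over 12 libraries it was 0.16. Within the 300 pairs of fast primary members it was 0.45 in Ctrl and 0.05 in hCG. Within the 28 pairs of slower or late members it was 0.41 and 0.65, and across the 200 pairs of a fast with a late member 0.23 and -0.17. The difference between the groups was not tested.

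The covariation of the fast members rested on Ctrl 1. Without that library the median over the 12-library deviations fell to -0.04 for all pairs and to 0.0 for fast primary pairs, while that of the slower or late pairs was 0.63, against 0.53 with it. The mean log2(CPM + 1) of the 25 fast primary members was 4.31 in Ctrl 1, 4.67 to 4.85 in the other Ctrl libraries and 4.24 to 4.45 in the hCG libraries. Ctrl 1 thus lay within the hCG range for this mean. Its Rbm3 level, 128 CPM, was the lowest of the Ctrl libraries (135 to 157 CPM in the others) and above all hCG libraries. The Cirbp level of Ctrl 1, 73.0 CPM, was instead the highest of all 12 libraries. The other Ctrl libraries measured 50.8 to 71.3 CPM of Cirbp and the hCG libraries 22.3 to 33.9 CPM. How Rbm3 and Cirbp relate to the fast primary members was not tested. For the 8 slower or late members the mean was 4.95 to 5.44 in Ctrl and 4.66 to 5.18 in hCG, so that the groups overlapped.

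The slower members Nr4a2, Nr4a3, Bdnf, Homer1, Nptx2, Dusp5 and Dusp6 form 21 pairs, and r over the 12-library deviations was positive in all of them, from 0.26 (Nr4a2 with Bdnf) to 0.86 (Nr4a2 with Dusp5). They were not positive in each group: within Ctrl, r was -0.14 for Nr4a2 with Nr4a3 and -0.07 for Nr4a3 with Dusp5, against 0.82 and 0.76 within hCG. Within Ctrl it was also near 0 for Nr4a2 with Bdnf (0.06) and Nr4a3 with Nptx2 (0.08), and the difference between the groups was not tested. Fosl2 had negative r with each of the 7, from -0.61 (Nr4a3) to -0.04 (Homer1). In hCG 4 and hCG 6 several of them were low together, with Nr4a3 at 27.8 and 31.6 CPM and Dusp6 at 21.7 and 27.9 CPM. The strongest of all pairs was Nr4a1 with Arc, at r = 0.91 (0.87 without Ctrl 1). Within Ctrl it had r = 0.94 (exact permutation p = 0.0444) and Spearman's rho = 0.60 (p = 0.242), and within hCG r = 0.88 (exact permutation p = 0.025) and rho = 0.83 (p = 0.0583). Without the 2 libraries farthest from the Nr4a1 median, r was -0.47 in Ctrl and 0.60 in hCG. Leaving out the farthest of 6 libraries also narrows the range, which by itself can lower r. These values therefore cannot show whether the Ctrl relation rests on those libraries. The most negative pair was Dusp6 with Btg2, at r = -0.81. These pairs were picked after their values were seen.

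Fos was set against each of the other 34 members in each group. Of these 68 relations 4 had an exact permutation p under 0.05, all of them in Ctrl. Fos with Junb had r = 0.87 (p = 0.0194, rho = 0.77 with exact p = 0.103, and r = 0.98 without the 2 farthest libraries). Fos with Arc had r = 0.83 in Ctrl (exact permutation p = 0.0417, rho = 0.43 with p = 0.419) and r = -0.75 in hCG (p = 0.0722, rho = -0.66 with p = 0.175). Without the 2 libraries farthest from the Fos median these values were 0.35 and -0.95, so the Ctrl relation rests on those libraries. Over all 1190 relations between members none passed 0.05 after Benjamini-Hochberg adjustment (smallest adjusted p = 0.207 for r and 0.254 for rho, against 130 relations under 0.05 unadjusted). With 6 libraries, 720 orders exist, and the smallest p found, 0.00139, is also the smallest they allow. After adjustment over 1190 relations, 1 relation could pass only together with many others at that floor. The absence of a pass therefore says little about covariation. By chance alone a share of about 0.05 would fall under 0.05 unadjusted.

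**Figure D4:**
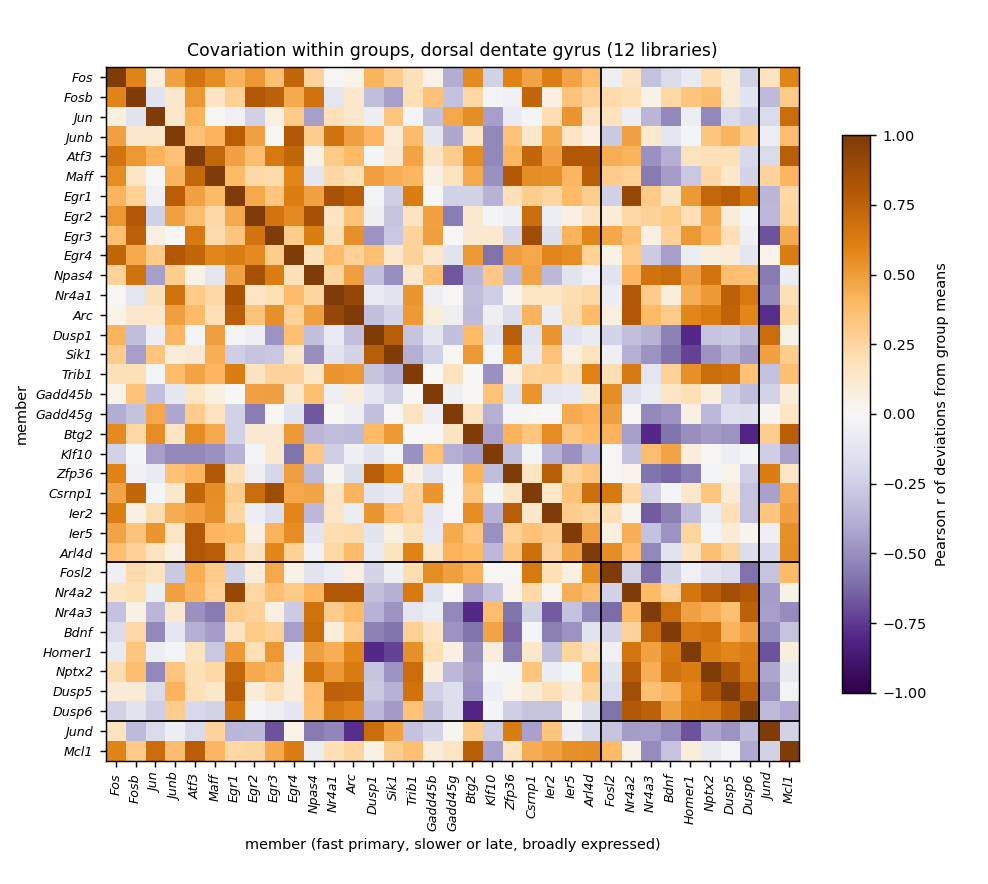
Pearson r between each pair of the 35 genes over 12 dentate gyrus libraries, using deviations of log2(CPM + 1) from the group means; black lines part the 25 fast primary, 8 slower or late and 2 broadly expressed genes. The block of slower or late genes is mostly orange (median r = 0.53) apart from the row of Fosl2, and the fast primary block mixes both signs (median r = 0.21).

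The 10 tested genes outside the list whose deviations followed the mean of the fast primary members best over 12 libraries were Smad7 (r = 0.91), Dnajb5 (0.88), Zfp882 (0.88), Tjap1 (0.87), Arsi (0.87), Itga7 (0.86), Dhx33 (0.86), Asb7 (0.86), Kif13b (0.85) and Zbtb9 (0.85). Being the best of all tested genes outside the list, they have a high r partly through that choice. Without Ctrl 1 these r values ran from 0.28 (Itga7) to 0.75 (Smad7). Their group difference did not follow that of the members: Smad7, Dnajb5 and Dhx33 rose in hCG, by 0.26, 0.41 and 0.30 on the log2 scale (adjusted p = 0.0391, 0.0216 and 0.0231), and none of the 10 fell.

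In blastocysts, values were the deposited signal scaled to CPM, and members were tested with limma on log2(CPM + 1). The blastocyst libraries expressed the trophectoderm genes Cdx2 and Krt8 and the inner cell mass genes Pou5f1 and Nanog in every library. In 5 hCG libraries (numbers 1, 3, 4, 22 and 23) and in 0 Ctrl libraries, Xist and the summed Y-linked transcripts each reached at least 50 CPM. Here 17 of the 35 members passed the filter on low values, which was set on both groups. Npas4 and Egr4 were listed at 0 in every library, and the means of Fosb, Egr2, Egr3, Nr4a3 and Arc were at or below 0.109 CPM in both groups.

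Of the 17 members tested, 1 rose and 1 fell, against 8.68% and 7.57% of all 10850 genes tested. Btg2, an antiproliferative gene, measured 11.2, 58.7 and 194 CPM (lowest, median and highest) in Ctrl and 30.5, 97.9 and 692 CPM in hCG. The groups overlapped widely, with 24 of 28 hCG libraries above the Ctrl median, and the log2 fold change was 0.88 ± 0.28 (adjusted p = 0.0282, limma). Homer1 measured 3.0, 10.3 and 17.5 CPM in Ctrl and 1.89, 5.61 and 11.2 CPM in hCG. Of the hCG libraries, 24 of 28 lay below the Ctrl median, and the log2 fold change was -0.59 ± 0.16 (adjusted p = 0.00951). Without the 5 libraries with Xist and Y-linked transcripts these values were 1.06 (adjusted p = 0.0188) and -0.56 (adjusted p = 0.0296).

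The members that fell in the dentate gyrus were mostly not testable in blastocysts: of the 12, Fos and Nr4a1 passed the filter. Fos measured 1.88 ± 2.87 CPM in Ctrl and 3.0 ± 3.05 CPM in hCG (SD, n = 28 each), with a log2 fold change of 0.54 and an adjusted p of 0.144. Nr4a1 measured 8.91 ± 5.69 CPM and 10.8 ± 5.37 CPM (0.28, adjusted p = 0.405). Fosl2 and Klf10, which rose in the dentate gyrus, had log2 fold changes of -0.24 (adjusted p = 0.453) and 0.14 (adjusted p = 0.515). Dusp1 measured 35 ± 23.4 CPM in Ctrl and 45.6 ± 20.1 CPM in hCG, with 21 of 28 hCG libraries above the Ctrl median (0.53, adjusted p = 0.0646), and Jun, with a log2 fold change of 0.47, had an adjusted p of 0.0923. On deposited values without any scaling the median of all genes moved to 0.49, 6 members were called higher and 0 lower. The 1 added before the logarithm weighs less against deposited values than against CPM. Scaling and this added value thus changed together, and their parts were not tested. The difference between the 2 materials was not tested, since each has its own table and unit.

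**Figure D5:**
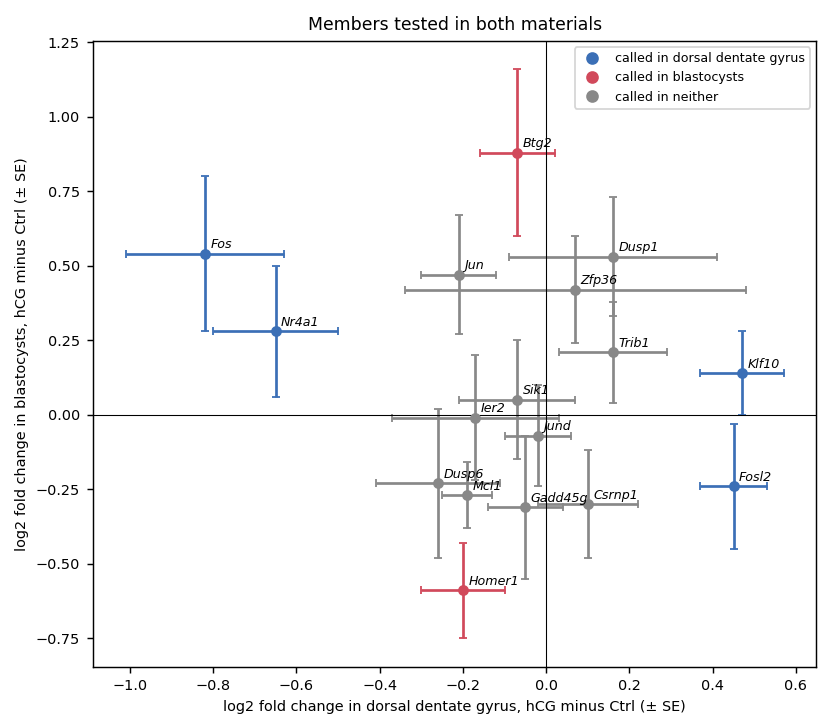
Log2 fold change, hCG minus Ctrl, in the dorsal dentate gyrus (horizontal axis, 6 libraries a group) and in blastocysts (vertical axis, 28 libraries a group) for the 17 members tested in both, with standard errors. Fos and Nr4a1 lie left of 0 and above 0, Btg2 is the highest point (0.88) and Homer1 the lowest (-0.59).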

How the data were processed

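Libraries were grouped by their labels into Ctrl and hCG. For the dorsal dentate gyrus the authors deposited expected counts per RefSeq transcript, of which 72.7% were whole numbers. The tool that split reads between transcripts is not given in the sources used here. These counts were summed by gene and rounded. Symbols that a spreadsheet had turned into dates (25 of 24409) were left out of the tests and kept in the totals. For blastocysts the authors deposited a scaled signal per gene. In each library 89.0% to 93.5% of the nonzero values were whole multiples (tolerance 0.005) of one step. This gave an estimated 3043231 to 10859379 reads per library. The estimates served for the low-value filter, the TMM factors and the scaled values that were tested. The basis of the deposited scaling is not given in the sources used here. The builds mm10 and GRCm38 and the tools Trim Galore, STAR 2.7.6a, TopHat, Bowtie2, HTSeq 0.12.4 and Trimmomatic 0.32 are named, with no role, per the submitters' processing notes. No per-sample column was left unmapped in either table.

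Dentate gyrus genes and transcripts were tested with edgeR 4.0.16 (R 4.3.3) by the quasi-likelihood test with TMM factors and filterByExpr (minimum count 10), two-sided. Blastocyst genes were tested with limma 3.58.1 on log2(CPM + 1) after TMM scaling. All genes were fitted and p-values adjusted over all of them (Benjamini-Hochberg, threshold 0.05). Alternatives were DESeq2 1.42.0, RLE factors, no low-value filter, other pseudocounts and scalings, each dentate gyrus library left out, and a replicate block. The scripts were tested on simulated data, with 1.5-fold and 2-fold changes set in genes above the median level. In the dentate gyrus test 97% and 99% of these were called, and 8.4% of all calls were false. The values for blastocysts were 84%, 99% and 5.2%. Recovery of changes in genes at lower levels was not simulated. Estimated counts ran from 14991582 to 17859654 per dentate gyrus library, and no library repeated another (correlations 0.9616 to 0.9933).

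The members and the other gene lists were chosen with earlier results of these data known. Printed by rule were all members, each library's values for Fos, Arc, Bdnf and Homer1 and values for members past the threshold, pairs with Fos, the 10 genes most like the fast primary mean, and up to 4 genes of each other list with the smallest p. Hspa1b and Hsph1 fall outside that rule and were named, after their values were seen, to give the whole temperature and handling list. Promoter sequences and gene positions are from RefSeq, GRCm38.p6. The position of Egr1 is not reported here.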

Additional observations from a re-analysis of the deposited data

Results flagged for a closer look

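In 3 of 70 groups of 6 dentate gyrus libraries (35 genes in Ctrl and in hCG), 1 library lay apart from the other 5 by Dixon's 95% criterion on the gap over the range. Chance gives about 1 in 20 groups. Fosl2 was high in hCG 4, at 119 CPM against 95.8 CPM in the next library. Egr4 was low in Ctrl 1, at 17.4 CPM against 19.8 CPM in the next. Arl4d was also low in Ctrl 1, at 12.3 CPM against 23 CPM in the next. Both low values fell in Ctrl 1. Without hCG 4 the log2 fold change of Fosl2 was 0.38, and without Ctrl 1 that of Egr4 was -0.89 and that of Arl4d was -0.27.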

How the results depend on the processing

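Among 560 recomputed log2 fold changes of the 35 members in the dentate gyrus, 525 kept their direction and their side of the threshold, 23 lost a call (in 5 genes), 4 gained one (Nr4a3 and Mcl1, each under DESeq2 and with 1 library left out) and 8 changed sign (Jund, Sik1 and Zfp36, none called). The number of members called lower was 12, and it was 14 with DESeq2, 12 with RLE factors, 11 without the low-count filter and 10 to 13 with 1 library left out; 2 were called higher under each of these. Over all genes tested, 443 were lower and 646 higher, against 710 and 884 with DESeq2 and from 267 to 547 and from 369 to 683 with 1 library left out. With 1 library left out the log2 fold change ran from -0.09 to 0.02 for Jund, from -0.16 to 0.02 for Sik1 and from -0.21 to 0.29 for Zfp36, and that of Zfp36 was -0.08 without Ctrl 1, -0.09 without Ctrl 5 and -0.21 without hCG 6. The 10 transcripts lower and 2 higher became 6 and 1 without the filter, 5 to 12 and 1 to 2 with 1 library left out, and the same with RLE factors. The median r of member pairs over both groups (0.16) ran from -0.04 to 0.22 with 1 library left out, that within Ctrl (0.34) from 0.11 to 0.42 and that within hCG (-0.03) from -0.05 to 0.0. The cause of these changes was not tested.

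Whether shared replicate numbers pair the dentate gyrus libraries is not stated in the labels. Deviations of same-numbered libraries correlated at -0.16 to 0.14 (over 0.1 in 2 of 6 pairs). No Ctrl library correlated best with its own number. With 6 pairs, such values cannot exclude a pairing. With the replicate block 9 members were called lower and 1 higher (197 and 387 of all genes), and 3 transcripts lower and 0 higher. The members not called with it were Atf3 (log2 fold change -1.10, adjusted p = 0.0803), Nr4a1 (-0.65, 0.0765), Arc (-0.84, 0.126) and Klf10 (0.47, 0.0557). In blastocysts same-numbered libraries correlated at -0.21 to 0.17 (over 0.1 in 3 of 28 pairs), and the block left 1 member lower and 1 higher.

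In blastocysts 105 of 119 recomputed fold changes kept direction and side. Deposited values without scaling gave 6 members higher and 0 lower, with 3655 genes higher and 15 lower of all tested (942 and 821 with scaling), and changed the sign of Fosl2 (0.02), Jund (0.37), Dusp6 (0.19), Gadd45g (0.11), Csrnp1 (0.10), Ier2 (0.42) and Mcl1 (0.16). Ier2 was 0.02 without TMM factors. Without the low-value filter 4 members were higher (Atf3, Maff, Nr4a2 and Btg2), as more genes were tested. Leaving out the 5 libraries with Xist and Y-linked transcripts changed no member's call, and 667 genes were then higher and 480 lower. The lowest dentate gyrus library held 17 (Egr2, Dusp5), 20 (Maff) and 31 (Atf3) estimated counts, and the part of depth in the errors of these genes was not tested.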
